A study of Mus musculus with 18 samples.

Results

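Presomitic mesoderm cells were described in single-cell transcriptomes of whole mouse embryos. A cell was taken as presomitic when it held at least 1 unique molecular identifier (UMI, 1 counted transcript molecule) of Tbx6 and at least 1 UMI of at least 2 of the genes Msgn1, Hes7, Dll3 and Dll1. Among 105556 barcodes with 3000 or more mouse UMIs, 4144 met this rule. Because the rule reads the counts themselves, the levels of these 5 genes are given as a description and were not tested.

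The study followed mouse embryos that lack 1 of the DNA methyltransferases, collected at E8.5 from natural matings of heterozygous mice, with matching wild-type embryos as controls. Each library held the cells of 1 embryo on the 129S4/SvJae background, captured with 10x Genomics 3' v3 chemistry. There were 7 wild-type (WT), 3 Dnmt1 null, 4 Dnmt3a null and 4 Dnmt3b null libraries, written below as Dnmt1 KO, Dnmt3a KO and Dnmt3b KO with the replicate number of the label. The null alleles were inherited from the heterozygous parents, so that every cell of a KO embryo, presomitic or not, carried them.

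The presomitic mesoderm is the unsegmented tissue that flanks the neural tube in the tail of the embryo. It is fed from the tail bud by neuromesodermal progenitors (NMPs), is kept immature by Fgf and Wnt signals, and is cut into somites at its anterior end in step with a clock of oscillating Notch, Wnt and Fgf target genes. Tbx6 is a T-box factor that commits cells to paraxial mesoderm, Msgn1 is a bHLH factor downstream of it, Hes7 is the core oscillating repressor of the clock, and Dll1 and Dll3 are Notch ligands. DNMT1 copies DNA methylation onto newly replicated DNA, whereas DNMT3A and DNMT3B methylate unmethylated sites.

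The libraries labelled Dnmt3b KO 1 and 2 shared 12249 cell barcodes, including 134 presomitic cells (74.0% of those in Dnmt3b KO 1 and 58.5% of those in Dnmt3b KO 2), whereas no other of 152 library pairs shared more than 133 barcodes. These libraries were therefore summed and counted as 1, which left 3 Dnmt3b KO libraries. The totals of 105556 barcodes and 4144 presomitic cells count both in full, so barcodes found in both enter these totals 2 times. Y-linked genes were expressed in 1 WT library, WT 2, and in every KO library except Dnmt3b KO 12, so that sex and genotype were close to confounded. Summed over its presomitic cells, a library held between 2902903 UMIs (Dnmt1 KO 2) and 26601623 UMIs (Dnmt3a KO 14).

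The targeted genes were read first in the summed presomitic cells of every library. Levels are given as UMIs per 1000000 UMIs of the library (CPM) after TMM scaling. Sums over a list, ratios of pooled levels and levels set beside other kinds of cells are without TMM scaling. Dnmt1 stood at 20.8, 18.9 and 17.3 CPM in Dnmt1 KO 1, 2 and 3, against 113 in the lowest, 126 in the median and 138 in the highest WT library. Dnmt3a stood at 13.6, 11.9, 12.1 and 14 CPM in Dnmt3a KO 1, 2, 13 and 14, against 37.5, 44.3 and 50.7 CPM as the lowest, median and highest WT level. Both transcripts were thus lower in every library labelled as their KO than in any WT library, with log2 fold changes of -2.71 (SE 0.13, edgeR adjusted p = 1.82e-10) and -1.77 (SE 0.27, edgeR adjusted p = 0.00622). The Dnmt3a call passed the threshold in 1 of 11 fits that left out a library.

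The Dnmt3b transcript did not separate the libraries labelled Dnmt3b KO from WT. It stood at 65.7 CPM in Dnmt3b KO 1 and 2 summed, 76.3 in Dnmt3b KO 11 and 83.1 in Dnmt3b KO 12, within the WT range of 49.0 to 83.2 CPM, and a 3' tag outside a deleted stretch does not check the deletion. In the same libraries Dnmt3a stood at 48.9, 19.2 and 9.67 CPM, so that the libraries labelled Dnmt3b KO 11 and 12 had Dnmt3a below every WT library, and Dnmt3b KO 12 below every Dnmt3a KO library. A pair of neighbouring genes on chromosome 2 did mark all of these libraries. Gm14226 (chr2:155018266-155027104, + strand, GRCm38) fell from 60.9 to 83.2 CPM in WT to 0.184 in Dnmt3b KO 1 and 2, 0.206 in Dnmt3b KO 11 and 0.722 in Dnmt3b KO 12, and Ahcy (chr2:155059310-155074497, - strand), which hydrolyses S-adenosylhomocysteine, fell from 24.6 to 30.7 CPM to 9.09, 8.74 and 11.4 CPM. Both lie on the same chromosome as Dnmt3b (chr2:153649450-153687730). The share of cells and the germline calls in Dnmt3b KO are also given without replicates 11 and 12, which leaves 1 library.

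In WT embryos the rule picked cells with the profile of the unsegmented paraxial mesoderm. These 1794 WT cells were set beside 1822 WT somitic-like cells (no Tbx6 UMI, at least 1 UMI each of the somite genes Meox1 and Tcf15), 837 WT NMP-like cells (no Tbx6 UMI, at least 1 UMI each of T, Sox2 and Nkx1-2) and all cells outside the rule, in CPM without TMM scaling and as mean ± SD over the 7 WT libraries. Tbx6 stood at 75.0 ± 18.4 CPM in presomitic cells and, by construction, at 0 in the other kinds with a gate. Hes7 stood at 127 ± 45.7 CPM, Dll3 at 113 ± 40.3, Dll1 at 94.1 ± 23.0 and Msgn1 at 5.70 ± 1.79, the lowest of the 5. Over all cells outside the rule these were ratios of 110 for Tbx6, 87.0 for Msgn1, 33.8 for Dll1, 30.9 for Dll3 and 23.2 for Hes7.

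Genes that the rule did not use were also higher in these cells than in all cells outside the rule. Among genes at 20 CPM or more in WT presomitic cells and higher there than in the other cells of every WT library (2253 genes), the 15 with the largest ratio held 4 rule genes and 11 others. The protocadherin Pcdh19 was 18.9 times higher than in all cells outside the rule, the Wnt agonist Rspo3 12.1 times and the T-box gene T, which maintains tail bud progenitors, 8.99 times. The Fgf ligands were prominent: Fgf9 was 11 times, Fgf18 10.5 times, Fgf3 7.85 times and Fgf17 7.45 times higher. The remaining 4 were Gm14226 (10.9 times), 2610528A11Rik (9.67 times), the lipid raft protein gene Rftn1 (9.21 times) and the ubiquitin ligase gene Rnf213 (8.75 times). Against NMP-like cells alone the picture was different for Fgf17, which was lower in presomitic cells (59.8 against 86.2 CPM) and highest there in 0 of 7 WT libraries, and T was close (117 against 89.1 CPM). These ratios describe cells that were chosen from the same counts and carry no test.

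**Figure D1:**
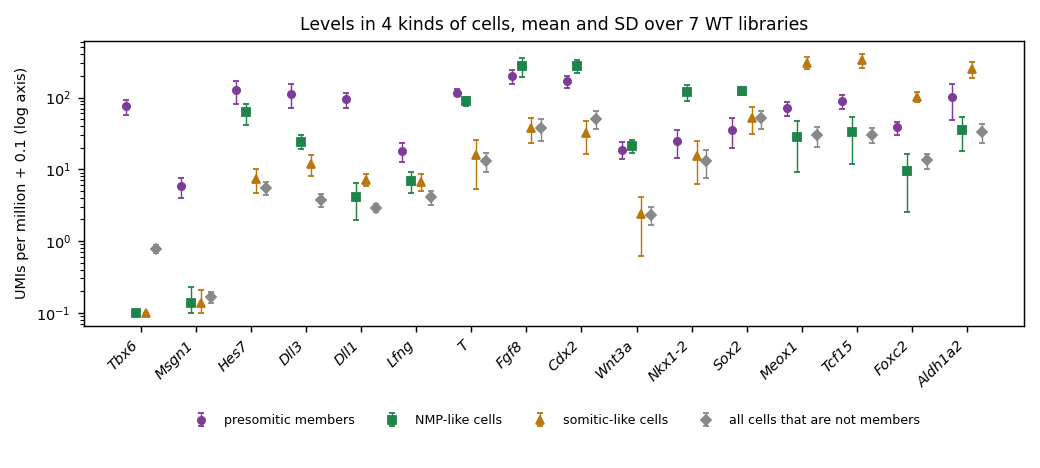
Levels of 16 genes in 4 kinds of WT cells, in CPM plus 0.1 on a log axis. Points are means and bars are SDs over 7 WT libraries. The 5 rule genes on the left are highest in presomitic cells, the tail bud genes in the middle are shared with NMP-like cells, and on the right Foxc2 and Aldh1a2, as well as Meox1 and Tcf15, which define the gate, are highest in somitic-like cells.

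Some genes of the posterior and of the somite stood in WT presomitic cells between the levels of NMP-like and somitic-like cells, and others did not. Fgf8, the ligand of the posterior gradient, stood at 274 ± 81.8 CPM in NMP-like, 198 ± 44.4 in presomitic and 37.7 ± 14.4 in somitic-like cells. Tcf15, a bHLH factor needed for somite epithelium, stood at 88.5 ± 20.4 CPM in presomitic and at 332 ± 76.2 CPM in somitic-like cells, and the homeobox gene Meox1 at 71.3 ± 16.5 and 307 ± 59.5 CPM, with 32.9 ± 21.2 and 28.2 ± 19.3 CPM in NMP-like cells. The gates fix part of this, since somitic-like cells were chosen for Meox1 and Tcf15 and NMP-like cells for T, Sox2 and Nkx1-2. Sox2, a neural and progenitor factor, and Pax3 were lowest in presomitic cells, where Sox2 stood at 35.7 CPM against 52.2 in somitic-like and 124 in NMP-like cells and Pax3 at 19.5 against 61.4 and 30.9 CPM. Mesp2 and Ripply2, which place the next somite boundary, were low in presomitic cells at 6.73 ± 6.63 and 7.52 ± 5.11 CPM and spread widely between embryos.

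The 4144 cells covered several of these states. Each cell with at least 10000 UMIs was thinned to 10000 UMIs, and a cell was sorted by whether a UMI of T, or of Meox1 or Tcf15, remained. In WT libraries 39.8% to 49.0% of the presomitic cells held T without Meox1 or Tcf15, 16.9% to 23.7% held Meox1 or Tcf15 without T, 4.96% to 11.9% held both and 23.9% to 31.9% held neither. Dnmt3a KO libraries spanned 39.3% to 54.7% for T alone and 13.4% to 26.7% for Meox1 or Tcf15 alone, and Dnmt3b KO libraries spanned 31.4% to 54.3% and 8.70% to 25%, so that both groups overlapped WT in both states. In Dnmt1 KO, the cells with neither made up 38.5% to 49.3%, above every WT library, and those with Meox1 or Tcf15 alone 11.1% to 14.9%, below every WT library. T alone was held by 42.6%, 30.8% and 19.4% of the cells of Dnmt1 KO 1, 2 and 3, and both by 7.41%, 17.3% and 16.4%. Meox1 or Tcf15 with or without T was thus held by 10 of 54, 16 of 52 and 21 of 67 cells, against 32 of 141 in the lowest (WT 2) and 67 of 211 in the highest (WT 7) WT library, so that on this count Dnmt1 KO 2 and 3 lay inside the WT range. Cells with both T and Sox2 made up 5.69% to 13.1% in WT, 8.10% to 13.3% in Dnmt3a KO, 4.35% to 7.90% in Dnmt3b KO and 1.92% to 3.70% in Dnmt1 KO. As a background at the same 10000 UMIs, extraembryonic endoderm-like cells (at least 2% of UMIs from Ttr, Apoa1, Afp, Rbp4 and Apoa2), which should lack these genes, held T in 0% to 2.34% and Meox1 or Tcf15 in 0% to 3.5% of cells in WT. In Dnmt1 KO the same cells (251, 272 and 48) held T in 0%, which allows up to 1.20%, 1.10% and 6.25%, and Meox1 or Tcf15 in at most 0.368%. Cells with both T and Sox2 made up at most 0.229% of them in WT and 0% in Dnmt1 KO. After thinning to 3000 UMIs instead, Tbx6 itself remained in 18.5% to 31.7% of the WT presomitic cells and in 16.4% to 26.4% of those in Dnmt1 KO, so at that depth most cells of the set no longer showed the gene that defines it.

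Cells close to the border of the rule were common. In WT libraries 15.6% to 28.5% of the presomitic cells rested on a single Tbx6 UMI, beside 23.6%, 39.6% and 23.2% in Dnmt1 KO 1, 2 and 3, 20.2% to 27.3% in Dnmt3a KO and 29.7% to 34.7% in Dnmt3b KO, which lay above every WT library. In WT 1 the 312 cells comprised 65 with exactly 2 of the other 4 genes, 193 with 3 and 54 with all 4. Just outside, WT 1 held 44 cells with Tbx6 and 1 other gene, 58 with Tbx6 alone and 229 with 2 or more of the other genes but no Tbx6 UMI. Erythroid-like cells, which should not express these genes and have at least 10% of their UMIs from globin genes, gave the background: outside Dnmt1 KO 0% to 1.31% of them held a Tbx6 UMI and at most 0.295% met the whole rule, at median depths of 9558 to 43670 UMIs against 20066 to 73138 UMIs in presomitic cells of the same libraries. The Dnmt1 KO libraries held 3, 1 and 3 erythroid-like cells, too few to measure this background.

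Presomitic cells made up a smaller mean share of the embryo in each KO group than in WT, and the differences did not pass the test at the depth as sequenced. The WT libraries held 312, 161, 331, 271, 83, 424 and 212 presomitic cells, or 2.51% in the lowest (WT 2), 6.30% in the median and 8.09% in the highest (WT 6) library. Dnmt1 KO 1, 2 and 3 held 55, 53 and 69, or 3.63%, 1.70% and 2.82%. Of these, Dnmt1 KO 2 alone lay below all WT libraries. Dnmt3a KO 1, 2, 13 and 14 held 2.95%, 1.86%, 3.37% and 5.50%, from 238, 181, 251 and 356 cells, with Dnmt3a KO 2 below all WT libraries. Dnmt3b KO 1, 2, 11 and 12 held 2.07%, 2.63%, 5.53% and 3.22%, from 181, 229, 545 and 192 cells, with Dnmt3b KO 1 below all WT libraries. The group means were 5.86% ± 2.0 (SD, n = 7) for WT and 2.72% ± 0.970 (n = 3) for Dnmt1 KO, and the other means were 3.42% ± 1.52 for Dnmt3a KO (n = 4) and 3.70% ± 1.65 for Dnmt3b KO (n = 3). For counting error alone, the 95% Clopper-Pearson interval was 3.31% to 4.13% in WT 1 and 1.27% to 2.22% in Dnmt1 KO 2.

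On the log2 scale the share in Dnmt1 KO was lower by a difference of -1.07 (two-sided exact permutation p = 0.0417, adjusted over the 3 KO groups 0.125). The differences in Dnmt3a KO and Dnmt3b KO were -0.79 (exact permutation p = 0.0848, adjusted 0.127) and -0.66 (exact permutation p = 0.158, adjusted 0.158). Without Dnmt3b KO 11 and 12 the Dnmt3b KO difference was -1.23 from 1 library (exact permutation p = 0.125, the smallest possible). The smallest p-values the permutations can give were 0.00833 for 3 against 7 libraries and 0.00303 for 4 against 7. WT 2 decided these calls: without it the differences were -1.26, -0.98 and -0.85, with adjusted exact permutation p-values of 0.0179, 0.0179 and 0.0238. Its cells outside the rule had a median of 9224 UMIs, the fewest of the WT libraries, against 55034 UMIs in its presomitic cells. WT 2 was also the only WT library with Y-linked expression. In the p-values without WT 2, sex and genotype therefore cannot be told apart except through Dnmt3b KO 12.

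Depth per cell also mattered, because the rule asks for single UMIs. The presomitic cells of Dnmt1 KO were sequenced to medians of 76087, 40370 and 80241 UMIs, whereas WT medians ran from 29046 to 73138. When every cell with at least 20000 UMIs was thinned to 20000, the Dnmt1 KO libraries kept 20, 23 and 25 presomitic cells, or 1.59%, 0.985% and 2.17%, against 3.67%, 4.77% and 6.69% as the lowest, median and highest WT share. All 3 then lay below all 7 WT libraries, with a log2 difference of -1.65 and an exact permutation p of 0.00833, the smallest the design allows (adjusted 0.025). At 10000 UMIs the shares were 0.8289%, 0.509% and 0.757% against 1.92% to 4.30% in WT, a difference of -1.91 with the same exact permutation p. The Dnmt3a KO and Dnmt3b KO differences at 10000 UMIs were -0.46 and -0.48 (adjusted exact permutation p = 0.142 for both). The share falls with fewer such cells and with fewer transcripts of the 5 genes per cell, and these cannot be told apart.

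**Figure D2:**
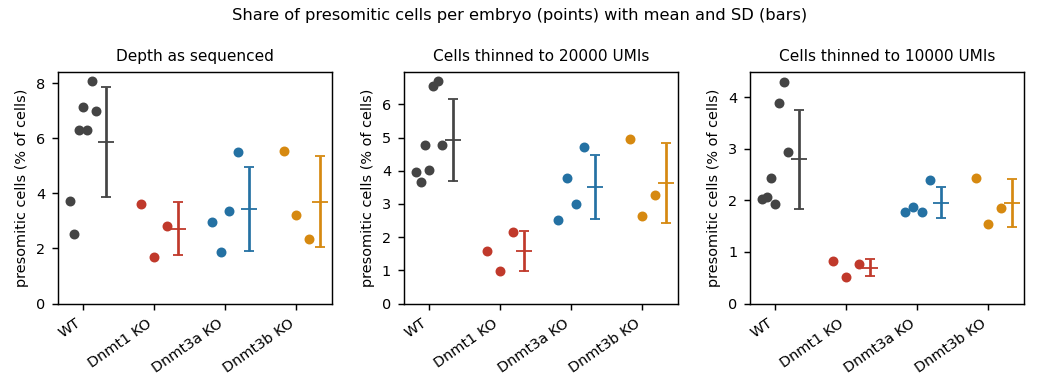
Share of presomitic cells among the cells of each embryo, in percent, at the depth as sequenced and after thinning every cell to 20000 or 10000 UMIs. Points are libraries (Dnmt3b KO 1 and 2 averaged to 1 point) and bars are mean and SD. The Dnmt1 KO points overlap WT in the left panel and lie below all WT points in the other panels, where the highest are 2.17% and 0.8289%.

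The rule genes themselves were less abundant in the Dnmt1 KO cells that met the rule. Summed over the 5 genes, the lowest, median and highest of the 3 Dnmt1 KO libraries held 120, 178 and 205 CPM and the WT libraries 239 to 588 CPM. Hes7 stood at 44.6, 50.4 and 25.3 CPM against 64.7 to 211 CPM, and Dll3 at 34.5, 37.8 and 26.0 against 56.3 to 168 CPM. Msgn1 did not share this, with 9.32, 11.9 and 8.05 CPM against 3.5 to 9.35 CPM. The rule takes cells on single UMIs, so a deeper library can admit cells with lower levels of these genes. At 10000 UMIs Dll3 remained in 69.6%, 65.2%, 49.5%, 43.2%, 67.9%, 68.3% and 58.3% of the presomitic cells of WT 1 to 7. Their median depths were 29046, 55034, 65228, 73138, 39842, 44563 and 61719 UMIs. In Dnmt1 KO 1, 2 and 3 Dll3 remained in 22.2%, 40.4% and 23.9% (median depths 76087, 40370 and 80241 UMIs), below every WT library. The part of depth was not tested. In Dnmt3a KO and Dnmt3b KO the summed level was 371 to 493 and 359 to 538 CPM, inside the WT range.

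To ask which other genes differed within these cells, UMI counts were summed over the presomitic cells of each library and compared with the quasi-likelihood test of edgeR. Of 13251 genes tested, Dnmt1 KO had 583 called higher (4.4% of the genes tested) and 295 called lower (2.23%), where called means an adjusted p below 0.01 together with a change by 1 or more on the log2 scale. Dnmt3b KO had 113 higher (0.853%) and 3 lower (0.0226%), and Dnmt3a KO had 6 higher (0.0453%) and 1 lower (0.00755%). The median log2 fold change over all genes was 0.00 for Dnmt1 KO, 0.01 for Dnmt3a KO and -0.01 for Dnmt3b KO. Of the calls in Dnmt1 KO, 69 of the higher genes had at most 3 UMIs in all WT libraries together. Such genes passed the low-count filter through the KO libraries and could only be higher.

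In the Dnmt1 KO cells that met the rule, part of the Notch and clock genes were lower. These cells also held less of the rule genes, at 120 to 205 CPM summed against 239 to 588 CPM in WT. For this list and those that follow, whether the cells admitted differed in state was not tested. Of the 28 tested genes of the Notch pathway and segmentation clock, 7 were called lower (25%, beside 2.23% of all genes) and 0 higher. The list median log2 fold change was -0.77, beside 0.00 over all genes. Nrarp, a Notch target that feeds back on the pathway, stood at 8.67, 7.69 and 5.65 CPM in the Dnmt1 KO libraries and at 19.2, 35.1 and 79.2 CPM as the lowest, median and highest WT level. All 3 KO libraries lay below WT, with a log2 fold change of -2.42 (SE 0.45, edgeR adjusted p = 0.000705). Lfng, the glycosyltransferase that modulates Notch in the clock, stood at 4.77, 6.29 and 4.11 CPM against 12.1 to 28 CPM (log2 fold change -1.86, SE 0.37, edgeR adjusted p = 0.00138). The other called genes were targets and inhibitors of the Fgf and Wnt arms: Spry4 (-1.49) and Spry2 (-1.09), which restrain Fgf receptor signalling, Sp5 (-1.45), a zinc finger Wnt target, Nkd1 (-1.30) and Dkk1 (-1.03), inhibitors of Wnt signalling. The receptor gene Notch1 (51.5 ± 9.17 CPM in WT and 28 ± 5.70 in Dnmt1 KO, log2 fold change -0.90), Dusp6 (-0.85), Hes1 (-0.70) and Axin2 (-0.35) were not called. Without Dnmt1 KO 3 the list had 3 lower calls in place of 7, and with cells thinned to 20000 UMIs it had 6 of 26, of which Nrarp, Spry4, Sp5 and Nkd1 are named above, whereas Lfng (-0.98, edgeR adjusted p = 0.294) and Spry2 (-0.91, edgeR adjusted p = 0.16) were not called.

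Part of the ligands and factors of the tail bud were lower as well. Of 28 tested tail bud and caudal progenitor genes, 8 were called lower (28.6%, beside 2.23% of all genes) and 2 higher (7.14%, beside 4.4%). The list median was -0.51. Fgf18 stood at 1.30, 2.10 and 2.05 CPM in the Dnmt1 KO libraries against 14.1, 21.8 and 42.1 CPM as the lowest, median and highest WT level. This gap of -3.70 on the log2 scale (SE 0.46, edgeR adjusted p = 1.55e-05) was the largest of the list. Fgf8 stood at 97.7, 74.8 and 50.0 CPM against 156 to 243 CPM in WT (log2 fold change -1.41, SE 0.21, edgeR adjusted p = 0.000111). Fgf17 (-1.75), the zinc finger gene Sp8 (-1.44), Greb1 (-1.22), the caudal homeobox gene Cdx4 (-1.20), the TGF-beta ligand gene Gdf11 (-1.04) and the homeobox gene Evx1 (-1.02) were the other lower calls. Fgf9, named among the genes with the largest ratio in WT presomitic cells, fell further still, from 11.1 to 32.8 CPM in WT to 0.867, 1.4 and 0.514 CPM (log2 fold change -4.59, SE 0.67, edgeR adjusted p = 7.56e-05).

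Not all genes of the posterior programme moved. T stood at 107, 105 and 60.4 CPM in Dnmt1 KO against 100 to 131 in WT (log2 fold change -0.36, edgeR adjusted p = 0.12), and Rspo3 (-0.22), Pcdh19 (0.04), Rnf213 (0.04) and Fgf3 (-0.33) had small log2 fold changes and were not called. Cdx2 (-0.39), Wnt3a (-0.65) and Nkx1-2 (-0.48) were not called either. Wnt8a, a Wnt ligand of the early primitive streak, was called higher, at 24.1, 16.8 and 14.7 CPM against 1.17 to 7.38 CPM (log2 fold change 1.89, SE 0.41, edgeR adjusted p = 0.00245). Tdgf1, the Nodal co-receptor, was also called higher at a low level (1.56 ± 0.313 against 0.137 ± 0.124 CPM), a call that remained in 1 of 10 fits without a library. Without Dnmt1 KO 3 the list held 1 higher and 4 lower calls, and at 20000 UMIs 0 higher and 5 lower of 26. Wnt8a (2.11, edgeR adjusted p = 0.0177) and Fgf18 (-2.20, edgeR adjusted p = 0.0292) were among the calls lost at that depth, whereas Fgf8 (-1.43, edgeR adjusted p = 0.00201) and Fgf9 (-4.90, edgeR adjusted p = 0.0052) were kept.

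The determination front and somite list had lower calls that were lost when cells were thinned to 20000 UMIs, a fit with fewer cells. Of its 28 tested genes, 10 were called lower (35.7%, beside 2.23% of all genes) and 0 higher, with a median of -1.18. Tcf15 stood at 5.63, 28.3 and 12.5 CPM in Dnmt1 KO 1, 2 and 3 against 63.5, 97.1 and 113 CPM as the lowest, median and highest WT level (log2 fold change -2.60, SE 0.41, edgeR adjusted p = 0.000165). The forkhead gene Foxc2 stood at 3.25, 6.64 and 7.02 CPM against 26.8 to 48.0 CPM (-2.76, SE 0.39, edgeR adjusted p = 5.19e-05). Uncx, which marks the posterior part of each somite, was listed at 0 UMIs in all 3 libraries against 1.95 to 9.55 CPM in WT, at least 15.8-fold lower when 3 UMIs are set as the floor over the group. Among the other lower calls were Meox2, Pcdh8, Eya1, Pax3, Foxc1 and Meox1, the last kept in 3 of 10 fits without a library. Mesp1, an early mesoderm gene, stood at 70.8 ± 18.8 CPM in Dnmt1 KO and 19.2 ± 16.0 in WT and was not called (1.85, edgeR adjusted p = 0.0154). At 20000 UMIs per cell 0 of 21 tested genes of this list were called, with a median of -0.47. That fit held only the cells that still met the rule, 20, 23 and 25 in Dnmt1 KO 1, 2 and 3 in place of 55, 53 and 69. Over all genes it had 274 calls of 10280 in place of 878 of 13251, so a lost call does not show that a gene was unchanged. Tcf15 then had a fold change of -2.10 (edgeR adjusted p = 0.0487), Foxc2 of -1.39 (edgeR adjusted p = 0.184) and Meox1 of -0.45 (edgeR adjusted p = 0.636). Without Dnmt1 KO 1 the list had 6 lower calls.

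Hox genes, whose sequential activation gives axial position, fell in Dnmt1 KO in all 4 clusters, with the largest changes in the HoxC cluster and at Hoxa9. Of 29 tested, 14 were called lower (48.3%, beside 2.23% of all genes) and 0 higher. The list median was -1.33, and 28 of 29 fold changes were negative. Hoxc8 stood at 13.2, 3.5 and 2.91 CPM in the Dnmt1 KO libraries against 113, 133 and 210 CPM as the lowest, median and highest WT level, a log2 fold change of -4.46 (SE 0.38, edgeR adjusted p = 1.43e-07). Hoxa9 (-4.16), Hoxc6 (-3.30), Hoxc9 (-3.07), Hoxc4 (-2.60), Hoxa7 (-2.31) and Hoxb9 (-2.26) followed. The early gene Hoxb1 (122 ± 26.9 CPM in WT and 85.5 ± 6.40 in Dnmt1 KO, log2 fold change -0.51), Hoxa5 (-0.38), Hoxb5 (-0.33) and Hoxb7 (-0.25) were not called. Summed over the list the lowest, median and highest Dnmt1 KO library held 397, 459 and 662 CPM, below the WT range of 997 to 1593 CPM. At 20000 UMIs 8 of 25 were called lower with a median of -1.27, Hoxc8 among them (-5.12, edgeR adjusted p = 2.92e-07), and without Dnmt1 KO 3 there were 9 lower calls. Hoxa9 (-4.27, edgeR adjusted p = 0.0488) and Hoxc9 (-2.63, edgeR adjusted p = 0.159) were not called at that depth. The Hoxc9 call was kept in 7 of 10 fits without a library. Retinoic acid genes, by contrast, had 1 lower call of 14, the binding protein gene Crabp2 (229 ± 39.0 against 114 ± 35 CPM, -1.0), a call kept in 4 of 10 fits without a library and lost at 20000 UMIs (-0.84, edgeR adjusted p = 0.0163), and 1 higher call, Stra8, which also belongs to the germline list. The synthesis gene Aldh1a2 (98.9 ± 48.7 CPM in WT, 122 ± 39.9 in Dnmt1 KO) and the degrading enzyme gene Cyp26a1 (56.5 ± 32.5 and 15.7 ± 6.23, edgeR adjusted p = 0.014) were not called.

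**Figure D3:**
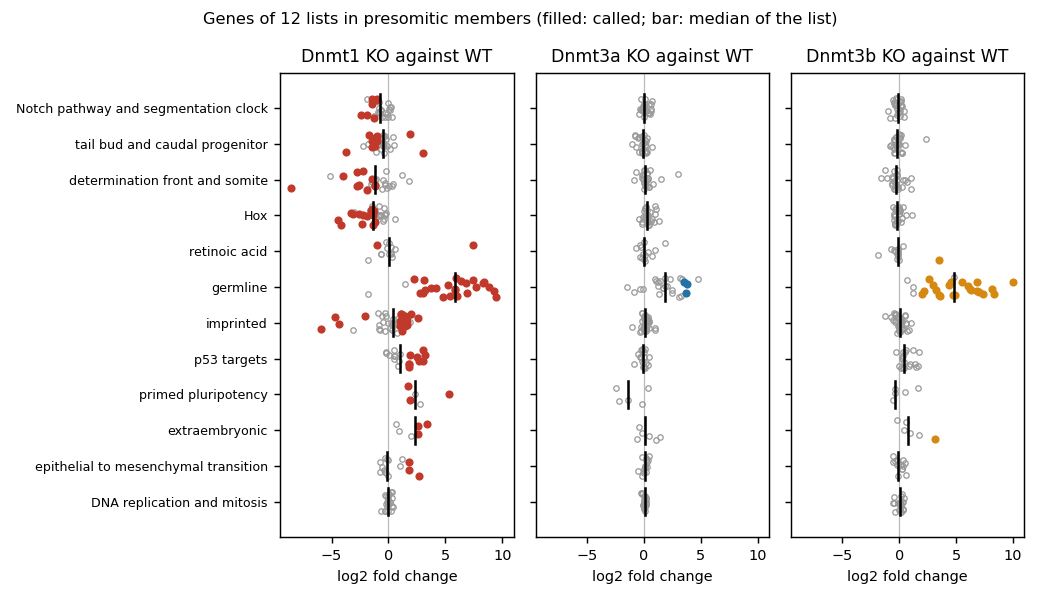
Log2 fold change (KO minus WT) in summed presomitic cells for the tested genes of 12 lists, 1 panel per KO group. Filled points are called genes, open points are not called, and black bars are list medians. In Dnmt1 KO the Hox, somite, Notch and tail bud lists lean left, with medians of -1.33, -1.18, -0.77 and -0.51, and the germline list, whose genes mostly passed the low-count filter through KO libraries, lies far right there and in Dnmt3b KO. Fold changes of genes near 0 in 1 group depend on the prior count of the fit.

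Imprinted genes, which are read from 1 parental copy under methylation marks, changed in both directions in Dnmt1 KO. Of 39 tested, 13 were called higher (33.3%, beside 4.4% of all genes) and 4 lower (10.3%, beside 2.23%), with a median of 0.41. Grb10 stood at 2.38, 3.15 and 4.28 CPM in the Dnmt1 KO libraries against 169, 201 and 248 CPM as the lowest, median and highest WT level, a log2 fold change of -5.92 (SE 0.23, edgeR adjusted p = 6.81e-12). The growth inhibitor gene Cdkn1c (-4.35), the growth factor gene Igf2 (-4.65) and Zdbf2 (-2.03) were the other lower calls. Peg3 stood at 816, 952 and 1129 CPM against 134 to 190 CPM (2.58, SE 0.13, edgeR adjusted p = 2.63e-10), and Peg10 at 111, 143 and 121 against 20.2 to 44.6 CPM (1.99, SE 0.19). H19 (197 ± 25.1 to 625 ± 152 CPM, 1.66) and Meg3 (237 ± 32.4 to 475 ± 122 CPM, 1.00) were among the 13. At 20000 UMIs the counts were 7 higher and 2 lower of 36. Igf2 (-5.98, edgeR adjusted p = 0.112) and Zdbf2 (-2.10, edgeR adjusted p = 0.0524) were not called there, with changes no smaller. The Zdbf2 call was kept in 7 of 10 fits without a library. In Dnmt3a KO and Dnmt3b KO 0 imprinted genes were called in either direction.

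Germline genes, which are silenced by promoter methylation in somatic lineages, were near 0 in WT presomitic cells and present in those of Dnmt1 KO and Dnmt3b KO. Of 32 listed genes 26 were tested, and 24 were called higher in Dnmt1 KO and 22 in Dnmt3b KO. As most were near 0 in WT, they passed the low-count filter through the KO libraries and could only be called higher, so these counts describe the list and the levels below carry the comparison. Rpl39l, a testis paralogue of a ribosomal protein gene with close copies elsewhere in the genome, stood at 0 to 0.719 CPM in WT, at 116, 149 and 136 CPM in Dnmt1 KO and at 22.2, 40.8 and 81.1 CPM in Dnmt3b KO 1 and 2, 11 and 12. Slc25a31, a germ cell ADP/ATP carrier, stood at 0 to 0.959 CPM in WT, 17.6, 16.1 and 17.1 in Dnmt1 KO and 13.8, 23.3 and 36.4 in Dnmt3b KO. The meiotic chromosome axis genes Sycp1 and Hormad1 had 2 and 3 UMIs in all WT libraries together. The ratio of pooled Sycp1 levels was 1036 in Dnmt1 KO (95% counting interval 284 to 8600) and 447 in Dnmt3b KO (123 to 3709). Dazl, a germ cell RNA-binding protein gene, was uneven in Dnmt3b KO, with 2.02 CPM in replicates 1 and 2, 17.7 in replicate 11 and 129 in replicate 12, whereas it held 27.3, 30.1 and 30.5 CPM in Dnmt1 KO.

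Summed over all 32 listed germline genes, the level was 8.15 to 14.1 CPM in WT and 369 to 439 CPM in Dnmt1 KO. In Dnmt3b KO it was 106 CPM in the lowest, 159 in the median and 468 in the highest library, and in Dnmt3a KO 19.9 to 39.9 CPM, so that every KO library lay above every WT library. Without Dnmt3b KO 11 and 12, the libraries with low Dnmt3a, 14 of the 26 genes were called in Dnmt3b KO, where the 1 library left was assumed to vary like those of the other groups. In Dnmt3a KO 3 germline genes were called, Slc25a31 (0.917, 4.55, 5.91 and 3.65 CPM, log2 fold change 3.67, SE 0.47, edgeR adjusted p = 0.00189), Syce1 (3.56, SE 0.47, edgeR adjusted p = 0.00189) and Stk31 (3.82, SE 0.53, edgeR adjusted p = 0.00323). Without Dnmt3a KO 14, 0 of the 26 genes were called.

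As methylation is known to silence such promoters, the 250 bases before the start of 3 of these genes are shown, all called higher in both Dnmt1 KO and Dnmt3b KO and all with the letters CACGTG, an E-box of the kind bound by bHLH factors such as MAX. Sequences are from RefSeq (GRCm38.p6), 5′ to 3′ on the strand of the gene, in lower case with the E-box in capitals: Sycp1 at chr3:102936101-102936350 (- strand), Slc25a31 at chr3:40708621-40708870 (+ strand) and Hormad1 at chr3:95559427-95559676 (+ strand).
Sycp1: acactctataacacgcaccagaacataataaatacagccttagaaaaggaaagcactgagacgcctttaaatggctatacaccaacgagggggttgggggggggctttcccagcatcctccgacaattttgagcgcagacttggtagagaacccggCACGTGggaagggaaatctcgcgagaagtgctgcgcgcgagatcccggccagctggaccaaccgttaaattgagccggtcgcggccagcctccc
Slc25a31: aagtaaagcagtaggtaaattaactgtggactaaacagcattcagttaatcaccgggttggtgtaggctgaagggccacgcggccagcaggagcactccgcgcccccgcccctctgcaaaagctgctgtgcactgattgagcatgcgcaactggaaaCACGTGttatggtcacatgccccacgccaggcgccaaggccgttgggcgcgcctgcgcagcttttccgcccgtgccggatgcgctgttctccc
Hormad1: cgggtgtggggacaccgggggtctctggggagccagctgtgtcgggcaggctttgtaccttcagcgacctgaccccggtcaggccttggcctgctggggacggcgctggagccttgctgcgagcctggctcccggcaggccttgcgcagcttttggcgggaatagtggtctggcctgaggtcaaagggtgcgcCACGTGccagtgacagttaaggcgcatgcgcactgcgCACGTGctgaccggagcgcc

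The E-box starts 94 bases before the Sycp1 start, 93 before the Slc25a31 start, and 57 and 20 before the Hormad1 start. CACGTG reads the same on both strands. Of the 24 germline genes called higher in Dnmt1 KO, 21 had an entry, and 11 of these (52.4%) held it in the 250 bases, beside 1634 of all 27025 promoters (6.05%). The median number of CG steps was 15 in these 21 promoters and 6 over all promoters. For the clock, the letters CTTTGA of TCF/LEF factors, searched on both strands, stood in 3 of 19 promoters of the Notch and clock list (Sp5, Dkk1 and Maml1), or 15.8% beside 14.05% of all promoters. A match of letters does not show binding.

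Genes of the p53 pathway were higher in Dnmt1 KO presomitic cells. Of 19 tested targets, 9 were called higher (47.4%, beside 4.4% of all genes) and 0 lower, with a median of 1.00. Ccng1, a cyclin induced by p53, stood at 82.6, 97.9 and 84.2 CPM in Dnmt1 KO against 9.47, 13.6 and 17.6 CPM as the lowest, median and highest WT level (log2 fold change 2.65, SE 0.33, edgeR adjusted p = 1.31e-05). Phlda3, which restrains Akt, stood at 155, 164 and 130 against 14.4 to 43.8 CPM (2.55, SE 0.43), and the receptor gene Eda2r (3.23), Trp53inp1 (3.04), Ddit4l (3.04), the death effector gene Pmaip1 (1.86) and the cell cycle inhibitor gene Cdkn1a (1.85) rose with them. At 20000 UMIs 5 of 18 were called higher, whereas Eda2r (2.61, edgeR adjusted p = 0.0727) and Pmaip1 (1.98, edgeR adjusted p = 0.0586) were not called. The 24 genes of DNA replication and mitosis had 0 calls and a median of -0.05, with Ube2c at 422 ± 18.2 CPM against 535 ± 103 and Top2a at 376 ± 37.8 against 386 ± 49.9. In Dnmt3b KO no p53 target was called, but the libraries were uneven: Ccng1 stood at 20.3, 15.5 and 83.8 CPM and Phlda3 at 28.1, 28.3 and 185 CPM in replicates 1 and 2, 11 and 12, so that Dnmt3b KO 12 alone reached the Dnmt1 KO levels.

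Part of the genes of the epithelial to mesenchymal transition, and part of those that the study had named from these embryos, were called higher in Dnmt1 KO. Of 15 genes of the transition, 3 were called higher (20%, beside 4.4% of all genes tested) and 0 lower. The list median was -0.11, and 10 of the 15 fold changes were negative. The E-cadherin gene Cdh1 stood at 23.6, 36.4 and 26.9 CPM against 1.59 to 6.47 CPM (log2 fold change 2.66, SE 0.26, edgeR adjusted p = 7.67e-07). Epcam (1.84), another epithelial adhesion gene, rose with it, and so did Vim, a mesenchymal filament gene, from 74.6 ± 16.9 to 253 ± 30.004 CPM (1.76), while Cdh2 (-0.11) and Zeb1 (-0.55) were not called. With cells thinned to 20000 UMIs Cdh1 (2.68, edgeR adjusted p = 0.000501) and Vim (1.84, edgeR adjusted p = 2.17e-06) were called, and Epcam (1.04, edgeR adjusted p = 0.077) was not. Of 5 primed pluripotency genes 3 were called higher, Utf1 (0.251 ± 0.207 to 13 ± 8.84 CPM), Slc7a3 and Pim2, and of 6 extraembryonic genes 3, the X-linked Rhox5, Trap1a and Xlr3a. Both of these lists were chosen by the study on embryos that include these, so their direction is not independent evidence. At 20000 UMIs 2 of the 5 primed pluripotency genes were tested and 1 was called, without Slc7a3 (0.42, edgeR adjusted p = 0.873), and Rhox5, kept in 3 of 10 fits without a library, was not called at a fold change of 2.60 (edgeR adjusted p = 0.0495). Without Dnmt1 KO 3 each had 1 call, and without Dnmt1 KO 2 the extraembryonic list had 1. Xlr3a, which has close copies on the X chromosome, was also higher in Dnmt3b KO (13.9, 13.7 and 27.4 against 0.702 to 3.97 CPM, 3.11, edgeR adjusted p = 1.67e-05).

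**Figure D4:**
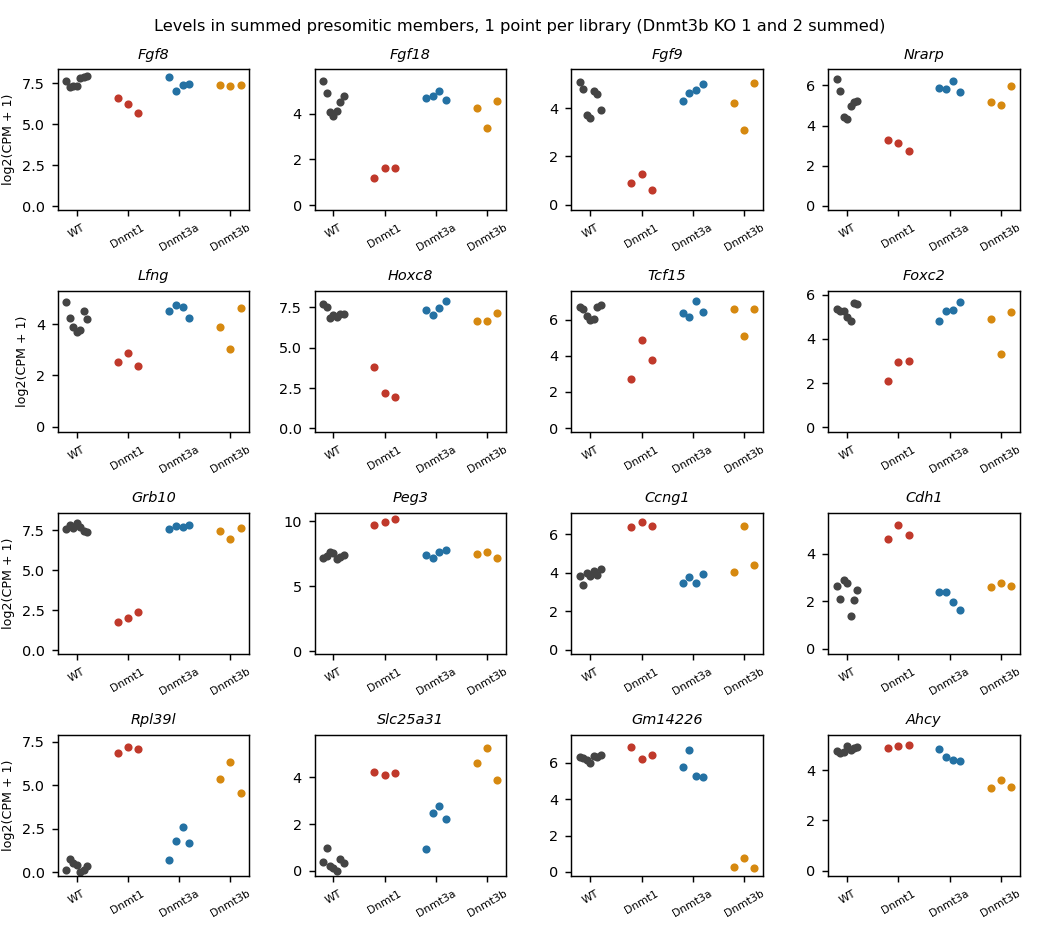
Levels of 16 genes in the summed presomitic cells of each library, as log2(CPM + 1), with 1 point per library and 1 colour per group. Fgf, Notch, Hox and somite genes and Grb10 are lowest in Dnmt1 KO, Peg3, Ccng1 and Cdh1 are highest there, the germline genes Rpl39l and Slc25a31 are high in Dnmt1 KO and Dnmt3b KO, and Gm14226 and Ahcy are low in Dnmt3b KO, where 1 library (replicate 12) has Ccng1 at 83.8 CPM.

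Genes outside these lists that had the smallest adjusted p values are given here as means and SDs. In Dnmt1 KO the higher ones included Trim5, which rose from 0.0338 ± 0.0427 CPM in WT to 21.2 ± 6.96 and stayed at 0 in Dnmt3b KO, the deadenylase gene Noct (13.1 ± 2.13 to 65.1 ± 12.8), the adaptor gene Ap1s2 (5.07 ± 0.547 to 25.3 ± 4.10) and the germ granule gene Rnf17 (4.74 ± 1.03 to 29.7 ± 2.45). The lower ones were the fatty acid binding protein gene Fabp5 (679 ± 42.7 to 225 ± 12 CPM), the microfibril gene Mfap2 (39.1 ± 4.92 to 7.77 ± 0.547), the forkhead gene Foxb1 (83.2 ± 6.58 to 9.85 ± 2.49) and Uchl1 (38 ± 4.30 to 15.6 ± 0.735). In Dnmt3b KO the higher genes were 8030474K03Rik, AU022751, Tuba3a and Gm4779 beside germline genes, and the 3 lower genes were Gm14226, Ahcy and the X inactivation regulator Jpx (7.02 ± 1.29 to 2.98 ± 0.440 CPM). In Dnmt3a KO the 3 higher genes outside the germline list were Calml4 (0.489 ± 0.129 to 2.74 ± 0.781 CPM), Plekha2 (3.21 ± 0.876 to 8.14 ± 1.34) and the testis proteasome gene Psma8 (0.333 ± 0.168 to 1.64 ± 0.313), and the lower gene was Dnmt3a itself. In 11 fits without a library, Calml4 was called in 11, Plekha2 in 4 and Psma8 in 2. None of the rule-independent presomitic genes of the clock, tail bud, somite or Hox lists was called in Dnmt3a KO or Dnmt3b KO, where the list medians lay between -0.29 and 0.24.

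Markers of other cells differed between the groups as well. Summed over 7 erythroid markers the presomitic cells held 104 to 5962 CPM in WT, highest in WT 1, and 15.2 to 22.0 CPM in Dnmt1 KO, where Hbb-bh1 and Hba-x were called lower. The cells outside the rule differed in the same direction, with 3410 to 38435 CPM in WT and 1112 to 1669 CPM in Dnmt1 KO. Of 5 extraembryonic ectoderm markers 2 were called higher in Dnmt1 KO, Tfap2c (1.73, 15.4 and 4.79 CPM against 0.515 to 2.28) and Hand1 (65.2, 63.0 and 83.5 against 14.7 to 47.1), and the summed level was 77.3 to 99.9 CPM against 22.7 to 52.7 CPM. Most of this sum was Hand1, so it does not speak for the list, and Tfap2c in Dnmt1 KO 1 lay inside the WT range. In cells outside the rule the same 5 markers summed to 128 to 272 CPM in Dnmt1 KO and 84.9 to 110 CPM in WT. The neural marker Pax6, the notochord marker Nog and the intermediate mesoderm marker Osr1 were called lower, as was Foxa2 among the gut markers, where Trh was higher. At 20000 UMIs none of Hbb-bh1, Hba-x, Hand1, Pax6, Nog, Osr1, Foxa2 and Trh was called, with edgeR adjusted p-values from 0.0118 (Pax6) to 0.287 (Osr1). Their log2 fold changes there were -4.84 for Hbb-bh1, -6.61 for Hba-x, 1.30 for Hand1, -7.87 for Pax6, -2.32 for Nog, -0.50 for Osr1, -5.85 for Foxa2 and 3.01 for Trh, so that all but that of Osr1 stayed above 1 in size. The notochord markers summed to 0.689 to 4.83 CPM in Dnmt1 KO and 7.91 to 13.9 CPM in WT. The sums of the endothelial, cardiac, gut, neural, neural crest, lateral mesoderm and extraembryonic endoderm markers overlapped between Dnmt1 KO and WT, although 2 or 3 of the 5 neural crest markers were at 0 in each Dnmt1 KO library. Doublets were the cells of highest Scrublet score, with a quota of 0.8% of cells per 1000 cells in the library. Libraries with more cells thus had a larger quota. Doublets by this quota made up 1.20% to 17.9% of the WT presomitic cells, 0% to 5.80% of those of Dnmt1 KO, 8.29% to 19.9% of Dnmt3a KO and 8.85% to 18.0% of Dnmt3b KO. Among the other cells they made up 1.05% to 6.29% in WT and 1.23% to 2.48% in Dnmt1 KO. In Dnmt3a KO and Dnmt3b KO the other cells held 4.67% to 7.77% and 4.64% to 7.29%. Within every library except Dnmt1 KO 1 the share was larger in presomitic cells, so the quota alone does not account for it. Median mitochondrial shares of UMIs per presomitic cell were 2.84%, 2.95% and 3.32% in Dnmt1 KO, above every WT library (2.14% to 2.51%). Dnmt3a KO 14 (3.34%) and Dnmt3b KO 12 (2.63%) also lay above every WT library. With called doublets left out Dnmt1 KO had 857 calls, 755 of them among the 878, and with cells limited to 30% mitochondrial and 35% ribosomal protein UMIs it had 875, of which 868 were among the 878. The part of the other cells' markers in the results was not tested.

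To ask whether the KO effect was particular to presomitic cells, the difference between the effect in presomitic cells and the effect in somitic-like cells of the same libraries was tested over 13962 genes. In Dnmt1 KO 17 genes (0.122%) were called, 4 with a higher and 13 with a lower effect in presomitic cells. Lama1, a laminin chain of basement membranes, stood at means of 12.8 CPM in WT and 4.71 in Dnmt1 KO in presomitic cells, and of 8.02 and 13.1 CPM in somitic-like cells (log2 difference of the effects -2.26, SE 0.28, edgeR adjusted p = 0.000887). Draxin, a secreted Wnt antagonist, stood at 1.67 and 12.1 CPM in presomitic cells and at 4.19 and 3.30 CPM in somitic-like cells (2.93, SE 0.45, edgeR adjusted p = 0.00291). The urea cycle enzyme gene Arg1 stood at 80.0 and 118 CPM in presomitic cells and at 203 and 91.2 CPM in somitic-like cells (1.66, SE 0.26, edgeR adjusted p = 0.00384). At 20000 UMIs per cell 1 of the 17 remained, Arg1 (2.20, edgeR adjusted p = 0.00409). Draxin kept its size (3.08, edgeR adjusted p = 0.196), as did Wdr66 (-3.94, edgeR adjusted p = 0.284). Lama1 shrank to -0.69 (edgeR adjusted p = 0.864) and Iqgap2 to -0.24 (edgeR adjusted p = 0.926). In Dnmt3b KO 1 gene was called (0.00716%), the pseudouridine synthase gene Pus7l, which stood at 14.8 and 22.4 CPM in presomitic cells and at 13.9 and 10.1 CPM in somitic-like cells (1.05, SE 0.14, edgeR adjusted p = 0.00395). In Dnmt3a KO 0 of 13962 genes (0%) were called by edgeR, with 898 at an unadjusted p under 0.05. A gene outside these calls was not shown to respond alike in both kinds of cells.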

How the data were processed

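Cells of 18 single embryos were measured by droplet single-cell RNA sequencing. The authors deposited filtered matrices of UMI counts per gene and barcode, raw whole counts that were not normalized. Per the file headers and the submitters' processing notes, 17 files were made with Cell Ranger 3.1.0 and 1 (Dnmt3b KO 12) with Cell Ranger 5.0.0, and 4 libraries were aligned to a combined human and mouse reference, of which the mouse genes were used. Reads are collapsed by UMI, so a count is a molecule, and intervals cover counting error only.

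Barcodes with at least 3000 mouse UMIs were kept. The cells, gates and gene lists were chosen with earlier results of these data known. Counts were summed over the presomitic cells of each library with at least 15 such cells, Dnmt3b KO 1 and 2 as 1 library, and genes were filtered, scaled by TMM and tested in edgeR 4.0.16 by quasi-likelihood (limma 3.58.1, R 4.3.3), with 1 fit over all 4 groups and Benjamini-Hochberg adjustment over all genes tested. Calls needed an adjusted p under 0.01 and an absolute log2 fold change of at least 1. The rule genes were left out of the tests. The difference between presomitic and somitic-like cells was tested as an interaction in 1 model of both kinds. Shares were compared as log2 of the percent, after 0.5 cells were added to each count of presomitic cells. The test was an exact two-sided permutation test (scipy 1.17.1, numpy 2.4.6, pandas 2.3.3, Python 3.11.15), adjusted over the 3 KO groups. The scripts were tested on simulated counts.

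Alternatives were DESeq2 1.42.0, no low-count filter, stricter cell filters, leaving out each library, a Y-linked covariate, a replicate block, doublets left out and cells thinned to 3000 UMIs. Doublets were taken as the cells of highest Scrublet score (scanpy 1.11.5), 0.8% of cells per 1000 cells in the library, and kept in the main results. The extraembryonic endoderm-like gate, thinning to 10000 and 20000 UMIs and leaving out Dnmt3b KO 11 and 12 were added after the data were seen. For shares and fits the rule was applied again to the thinned cells, so fewer cells entered them.

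The genes named were the rule and targeted genes, up to 6 called genes of largest change per list and KO group or otherwise the 2 most abundant, all called genes of the 2 lists from the study, up to 8 higher and 8 lower genes of smallest adjusted p per KO group, the 15 genes of largest WT ratio at 20 CPM or more, and up to 5 genes per direction of the interaction. Further genes of the lists were named after their values were seen. Promoters are RefSeq sequences (GRCm38.p6), the 250 bases before each start, matched by gene symbol. Embryos are the replicates.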

Additional observations from a re-analysis of the deposited data

Results flagged for a closer look

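In groups of 4 to 10 libraries, 16 of 177 groups tested (9.04%) had 1 library far from the others by Dixon's criterion, where chance alone gives about 1 in 20. Among the genes of the tail bud and Hox lists, WT 1 stood apart with Fgf17 at 100.51 CPM and Hoxc9 at 79.959 CPM, and Dnmt3a KO 1 with T at 166.31 CPM. WT 1 also stood apart for Mfap2 (49.865 CPM) and for the erythroid markers Hba-x (3044.2 CPM) and Hbb-bh1 (1014.7 CPM), and WT 5 for Nog (3.4091 CPM). In Dnmt3a KO 2 the outlying genes were Xlr3a (9.5795 CPM), Phlda3 (20.955 CPM) and Fabp5 (600.28 CPM), and in Dnmt3a KO 1 also Rftn1 (24.618 CPM). In Dnmt3a KO 13 they were Myl7 (142.89 CPM), Shh (25.878 CPM) and Noct (13.314 CPM), and in Dnmt3a KO 14 Kdr (11.999 CPM). The share of presomitic cells at 10000 UMIs stood apart in Dnmt3a KO 14, at 2.4003%.

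The effect of Dnmt1 KO differed between presomitic and somitic-like cells, by the interaction test of edgeR, for the named genes that follow, as log2 difference of the effects. It was higher in presomitic cells for Draxin (2.9277), Arg1 (1.6617), Fat3 (1.8435) and Adgrl3 (1.6468), and lower for Wdr66 (-2.6788), Lama1 (-2.2612), Ptgds (-1.8567), Iqgap2 (-1.17) and Sh3kbp1 (-1.1273). The lower differences came about in different ways. Iqgap2, a scaffold protein gene, stood at 28 and 14 CPM in presomitic cells of WT and Dnmt1 KO and at 28.8 and 32.4 CPM in somitic-like cells. Sh3kbp1 stood at 12.2 and 12.6 CPM in presomitic cells and at 12.8 and 29.1 CPM in somitic-like cells, and Ptgds, a prostaglandin synthase gene, at 5.66 and 13 CPM and at 3.92 and 32.3 CPM. In Dnmt3b KO the effect on Pus7l differed by 1.0460.

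In the 4 libraries aligned to a combined reference, human genes took 24810 UMIs in Dnmt3b KO 11, 23156 in WT 1, 22822 in Dnmt3a KO 1 and 21752 in Dnmt3a KO 13. These UMIs were not used.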

How the results depend on the processing

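No share difference, and no change of a named gene called in the main fit, reversed its sign under any alternative run. Counts of called genes have no sign, but their split by direction did move. In Dnmt3a KO 6 higher and 1 lower became 0 higher and 1 lower at 3000 UMIs and with the replicate block. Calls of a difference from somitic-like cells in Dnmt3b KO went from 1 higher and 0 lower to 5 higher and 28 lower with no filter. The share of presomitic cells in Dnmt1 KO passed the threshold when cells were thinned, with log2 differences of -2.41 at 3000 UMIs, -1.91 at 10000 and -1.65 at 20000. At 3000 UMIs the Dnmt1 KO shares rested on 1, 2 and 1 presomitic cells, so the size of that difference depends on the 0.5 cells added. Without 1 library at a time the differences were between -1.32 and -0.77 for Dnmt1 KO, between -1.05 and -0.53 for Dnmt3a KO and between -1.0 and -0.57 for Dnmt3b KO, and all passed without WT 2. WT 2 was the only WT library with Y-linked expression. Called genes in Dnmt1 KO numbered 274 at 20000 UMIs, 499 with a replicate block (587 without the block in the same libraries), 938 with DESeq2 and 625 to 871 without 1 library, against 878. With the Y-linked covariate Dnmt1 KO had 840 calls (525 higher and 315 lower), of which 603 were among the 878. The 7 calls in Dnmt3a KO became 35 with DESeq2, 25 with no filter, 18 without doublets, 15 with the Y-linked covariate, 11 with Dnmt3b KO 1 and 2 separate, 1 at 3000 UMIs, 1 with the replicate block (0 without it in the same libraries) and 1 to 26 without 1 library, the most without WT 2. The 116 calls in Dnmt3b KO became 188 with the Y-linked covariate, 52 at 20000 UMIs, 44 without Dnmt3b KO 11 and 12 (1 library, its spread taken from the other groups), 0 at 3000 UMIs and 82 to 121 without 1 library. Calls of a difference from somitic-like cells in Dnmt1 KO numbered 94 with no filter, 46 with the Y-linked covariate, 1 at 20000 UMIs and 7 to 16 without 1 library. Without a filter they numbered 66 in Dnmt3a KO and 33 in Dnmt3b KO, and in Dnmt3b KO 0 at 3000 and at 20000 UMIs and 0 to 1 without 1 library. The cause of these changes was not tested. At 3000 UMIs Dnmt1 KO kept under 15 cells per library and could not be fitted. Deviations of same-numbered libraries correlated at r of -0.11, -0.12 and -0.05 with Dnmt1 KO and, over only 2 pairs, at 0.30 and 0.18 with Dnmt3a KO, and the labels name no shared litter or batch, so they share only a number, and the block gave share differences of -0.57 in Dnmt1 KO (exact permutation p = 0.25, the smallest possible) and -0.38 in Dnmt3a KO (exact permutation p = 0.5, the smallest possible). In Dnmt3b KO no paired analysis was possible because replicates 1 and 2 count as 1 library. With 53 to 69 presomitic cells per Dnmt1 KO library, genes at a few CPM rest on few UMIs there, and sex cannot be told apart from genotype except through WT 2 and Dnmt3b KO 12.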

Other observations

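X-linked genes made up 82 of the 583 genes called higher in Dnmt1 KO presomitic cells (14.1%) and 26 of the 113 called higher in Dnmt3b KO (23.0%), beside 3.88% of the genes tested. In Dnmt1 KO 3 of the 583 were Y-linked, and 3 of the 295 genes called lower were X-linked (1.02%). Y-linked genes were expressed in WT 2 alone among WT and in every KO library except Dnmt3b KO 12. Sex and genotype were thus close to confounded for these counts. Of the genes called higher, 285 in Dnmt1 KO and 92 in Dnmt3b KO were below 1 CPM in WT.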
